A study of Mus musculus with 12 samples.

Results

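The fibrillar collagens are the chains of collagen types I, II, III, V and XI, and 9 genes encode them in the tables: Col1a1, Col1a2, Col2a1, Col3a1, Col5a1, Col5a2, Col5a3, Col11a1 and Col11a2. They were chosen by gene symbol, as 9 of the 25749 genes listed for each library, with earlier results of these data known. Total RNA of brain tissue had been sequenced from 12 male B6 mice, each 13 weeks old, in 3 groups of 4. The groups were uninjured mice, injured mice, and injured mice on continuous αLFA1/VLA4, antibodies against integrins with which leukocytes leave the blood. Per its title, the series deals with how myeloid cells act in damage and repair of injured brain vessels. Per the labels' protocols, tissue was taken on day 20 after the injury as a cube with edges of 3 mm after perfusion with saline. The labels call the cube injured tissue for every sample and do not say where it was cut in the uninjured mice. They give no transgene, no control antibody and no dose, and treat each mouse as a biological replicate. The last group is called antibody-treated below.

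A fibrillar collagen is secreted as a triple helix of 3 chains and assembles outside the cell into banded fibrils that resist stretch. Type I, made from Col1a1 and Col1a2, and type III, made from Col3a1 alone, form the bulk of fibrils in soft connective tissue. Type V chains (Col5a1, Col5a2, Col5a3) start such fibrils and limit their width, type II (Col2a1) is the main collagen of cartilage, and type XI chains (Col11a1, Col11a2) have the corresponding role there. Healthy brain tissue holds little fibrillar collagen, mostly in the meninges and around large vessels, and fibroblasts lay it down in scars of the central nervous system.

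Each chain was given on 2 scales. TPM scales reads to gene length and to the library, so that chains can be set beside each other. The tests used exon reads, and their log2 fold changes carry a standard error (SE). Exon reads per library ran from 15159988 to 15781229 in uninjured tissue, from 15507462 to 16121577 in injured tissue and from 13330379 to 13917157 in antibody-treated mice. All 9 chains passed the filter on low counts, and all of their exon reads were counted as unique to the gene. Col2a1 was the sparsest with 15 to 23, 22 to 42 and 17 to 19 reads per library in the 3 groups. The share of exon reads that crossed a splice junction, over all genes, was 25.2% to 26.2% in uninjured libraries, 27.5% to 30.9% in injured ones and 22.6% to 25.7% in antibody-treated ones. For Col1a2 that share was 57.4% to 63.8%, 55.9% to 61.3% and 32.4% to 48.0%, and for Col3a1 63.3% to 72.4%, 61.3% to 75.5% and 54.1% to 63.6%. The mean share was lower in the antibody-treated group than in both others for each of the 9 chains, and its part in the results was not tested. Mitochondrial genes took 10.3% to 12.01% of exon reads in uninjured, 4.75% to 7.99% in injured and 8.83% to 11.0% in antibody-treated libraries, so that the injured group stood apart from both others. All tissue here was bulk tissue, in which fewer cells of a type and less RNA per cell cannot be told apart.

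In uninjured tissue a type XI chain led. Col11a2 had the highest mean TPM, at 12.2 ± 0.983 (SD, n = 4), and Col1a2 and Col5a1 followed at 8.44 ± 0.736 and 7.78 ± 0.901, whose libraries overlapped. Col1a1 (4.35 ± 0.448) and Col11a1 (4.17 ± 0.606) overlapped as well, and Col3a1 followed at 2.80 ± 0.352. Col5a2 (1.84 ± 0.307) and Col5a3 (1.28 ± 0.332) overlapped, and Col2a1 was lowest at 0.569 ± 0.0968. The first 6 places in the order were the same in injured tissue, where the libraries of Col11a2 (20.7 ± 2.81) and Col1a2 (16.3 ± 1.149) overlapped. In antibody-treated tissue Col3a1 came first at 55.5 ± 6.49, overlapping Col1a2 at 48.2 ± 3.29, and Col1a1 came next at 35.1 ± 3.42. Col11a2 followed at 12.5 ± 0.696, clear of its neighbours on both sides. Col2a1 was last in all 3 groups.

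The genes are spread over the genome. In GRCm38, Col3a1 lies on the plus strand of chromosome 1 at 45311538 to 45349706 with 57 exons, and Col5a2 follows it on the minus strand at 45374321 to 45503282 with 54. The paired chains of type I lie apart, Col1a1 on chromosome 11 at 94936224 to 94953042 and Col1a2 on chromosome 6 at 4504814 to 4541544. Col5a1 lies on chromosome 2 at 27886425 to 28039514, Col5a3 on chromosome 9 at 20770050 to 20815067, Col11a1 on chromosome 3 at 114030540 to 114220718, Col11a2 on chromosome 17 at 34039437 to 34066685 and Col2a1 on chromosome 15 at 97975602 to 98004695. Small annotated genes overlap 5 of them. Gm13372, an antisense transcript, lies within Col5a1, and 2810430I11Rik, another, overlaps its start. No source used here says if reads were counted by strand, so reads of Col5a1 cannot be told apart from theirs with certainty. Gm43921, Gm47302 and Gm38211 lie on the same strand as Col1a2, Col3a1 and Col5a2, which they overlap. Counting by strand would not part reads from those shared stretches.

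RefSeq promoters, from 250 bases before to 50 after the start of transcription in GRCm38.p6, were found for 6 of the 9 chains. Shown are those of Col3a1 and Col1a2, 2 chains that were much higher in antibody-treated than in injured tissue, and of Col5a1 and Col11a2, the 2 that were lower there. Capitals mark each match of the TATA box TATAAA, the CCAAT box or the GC box GGGCGG on either strand, and no 2 of the matches shown overlap.
Col3a1: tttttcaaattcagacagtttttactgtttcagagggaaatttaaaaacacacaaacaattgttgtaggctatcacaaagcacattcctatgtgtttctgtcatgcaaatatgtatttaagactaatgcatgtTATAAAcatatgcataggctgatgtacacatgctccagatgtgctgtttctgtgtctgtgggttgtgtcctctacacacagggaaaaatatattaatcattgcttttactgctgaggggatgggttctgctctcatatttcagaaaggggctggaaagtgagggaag
Col1a2: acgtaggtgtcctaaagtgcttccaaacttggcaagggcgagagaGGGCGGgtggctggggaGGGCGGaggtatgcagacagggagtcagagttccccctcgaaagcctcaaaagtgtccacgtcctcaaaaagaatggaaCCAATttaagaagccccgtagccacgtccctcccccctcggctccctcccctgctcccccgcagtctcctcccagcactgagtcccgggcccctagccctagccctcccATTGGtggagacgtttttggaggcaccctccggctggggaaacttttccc
Col5a1: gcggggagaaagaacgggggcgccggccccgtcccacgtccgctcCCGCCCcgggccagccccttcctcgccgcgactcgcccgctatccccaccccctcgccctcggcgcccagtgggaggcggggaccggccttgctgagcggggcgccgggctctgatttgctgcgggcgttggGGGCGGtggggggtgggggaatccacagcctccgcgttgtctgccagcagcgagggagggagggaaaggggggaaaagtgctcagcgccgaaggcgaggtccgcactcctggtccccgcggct
Col11a2: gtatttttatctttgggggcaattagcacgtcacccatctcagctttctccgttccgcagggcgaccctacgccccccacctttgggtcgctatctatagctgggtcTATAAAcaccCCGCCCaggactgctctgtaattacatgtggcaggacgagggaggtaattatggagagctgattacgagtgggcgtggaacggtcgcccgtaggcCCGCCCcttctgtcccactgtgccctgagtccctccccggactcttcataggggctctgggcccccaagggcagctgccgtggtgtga
They lie on the plus strand at chr1:45311288-45311587, chr6:4505368-4505667, chr2:27886175-27886474 and chr17:34038888-34039187. The RefSeq starts of Col1a2 (4505618) and Col11a2 (34039138) differ from the gene starts of the tables. Over 32851 promoters of this length, TATAAA was found in 13.6%, CCAAT in 37.4% and GGGCGG in 35.7%. The Col3a1 promoter held 37.7% G and C and no CpG, against a median of 52.7% and 7 CpGs over all promoters, with TATAAA at -117 from the start. The Col5a1 promoter was 75.0% G and C with 34 CpGs and held GGGCGG at -73 and, on the reverse strand, at -205. The Col1a2 promoter (61.0%, 13 CpGs) held CCAAT at -109 and, on the reverse strand, at 1, and GGGCGG at -205 and -188. The Col11a2 promoter (59.0%, 16 CpGs) held TATAAA at -143 and GGGCGG on the reverse strand at -133 and -38. These matches are letters in a window and were not tested as sites.

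In injured against uninjured tissue, 7 of the 9 chains were higher and 0 were lower, by edgeR's quasi-likelihood test with Benjamini-Hochberg adjustment over 14771 genes at 0.05. Over all genes tested 11.9% were higher and 11.0% lower, which is 1764 and 1632 genes, or 3157 and 995 when libraries were scaled by size alone. The injured and uninjured libraries did not overlap in normalised counts for 7 chains, against 30.3% of all genes. The median log2 fold change was 0.60 over the chains and 0.03 over all genes. The lower mitochondrial share of the injured libraries moved with these differences, and its part was not tested.

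Type I led this comparison. Col1a1 stood at 4.70, 4.53, 3.69 and 4.46 TPM in the uninjured libraries and at 10.4, 9.30, 9.995 and 11.6 in the injured ones. Every injured library was above every uninjured one, and the log2 fold change was 1.09 ± 0.07 (SE), with an edgeR adjusted p of 3.17e-06. Its partner Col1a2 read 7.57, 8.52, 8.31 and 9.36 TPM in uninjured and 16.1, 14.8, 17.0 and 17.4 in injured tissue. It rose by less, at a log2 fold change of 0.79 ± 0.06 (edgeR adjusted p = 1.41e-05), and again without overlap. Col3a1, the type III chain, stood at 2.30, 2.86, 2.91 and 3.13 TPM in uninjured and 5.51, 4.66, 4.64 and 5.63 in injured libraries, a log2 fold change of 0.70 ± 0.10 (edgeR adjusted p = 0.00145).

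The 3 type V chains rose too. Col5a3, the type V chain with the most restricted distribution in the body, read 1.56, 1.44, 0.807 and 1.31 TPM in uninjured and 2.93, 2.56, 2.71 and 2.88 in injured tissue. Its log2 fold change of 0.95 ± 0.16 (edgeR adjusted p = 0.00310) was the largest after that of Col1a1. Col5a1, present in nearly every type V molecule, stood at 7.87, 7.55, 6.76 and 8.93 TPM against 12.3, 9.95, 13.0 and 14.8, a log2 fold change of 0.52 ± 0.09 (edgeR adjusted p = 0.00425). Col5a2 passed by little, at 1.93, 1.54, 1.65 and 2.22 TPM against 2.66, 2.79, 2.67 and 2.91 and a log2 fold change of 0.43 ± 0.12 (edgeR adjusted p = 0.0216). Without uninjured replicate 2, injured replicate 2 or injured replicate 4 the adjusted p of Col5a2 was 0.0595, 0.0620 and 0.0609 by the same edgeR test. From junction reads alone these chains missed the threshold, with edgeR adjusted p of 0.242 for Col5a2, 0.132 for Col5a1 and 0.0733 for Col5a3 at log2 fold changes of 0.38, 0.51 and 0.92.

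The chains of cartilage fibrils were split. Col11a2 read 11.3, 12.2, 11.6 and 13.5 TPM in uninjured and 17.2, 19.7, 22.1 and 23.6 in injured tissue, without overlap, and its log2 fold change was 0.60 ± 0.08 (edgeR adjusted p = 0.00119). Once a trend with GC content and length had been taken out of each library it was 0.35 (edgeR adjusted p = 0.0169). Col11a1 overlapped, at 4.89, 3.88, 3.50 and 4.40 TPM against 5.45, 4.33, 5.37 and 6.26. Its log2 fold change of 0.20 ± 0.14 did not pass (edgeR adjusted p = 0.295), with a 95% interval of -0.11 to 0.50. With that trend taken out it passed, at 0.34 (edgeR adjusted p = 0.00848). Col2a1 read 0.477, 0.696, 0.514 and 0.590 TPM in uninjured and 0.730, 0.791, 0.954 and 1.39 in injured tissue, from few reads. It was just outside the threshold at 0.59 ± 0.20 (edgeR adjusted p = 0.0510). It passed in 5 of the 21 alternatives, among them without uninjured replicate 2, at an edgeR adjusted p of 0.0488, and without injured replicate 1, at an edgeR adjusted p of 0.0322. Without injured replicate 4 its log2 fold change fell to 0.39 (edgeR adjusted p = 0.244), and with the GC and length trend taken out to 0.32 (edgeR adjusted p = 0.306).

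**Figure D1:**
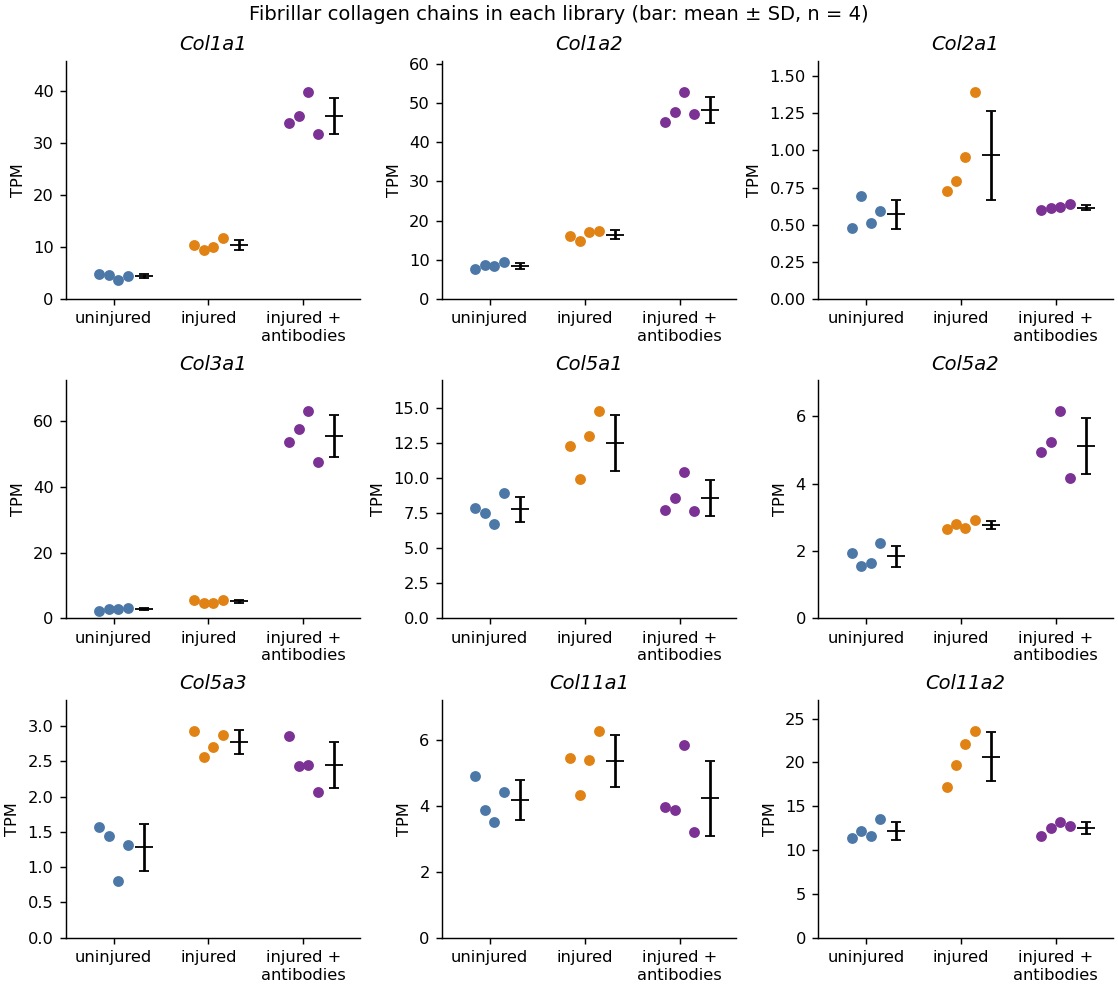
Level of each chain in TPM (y axis, linear from 0) in the 12 libraries, as points by group, with bars for the mean ± SD of 4 libraries. Col1a1, Col1a2, Col3a1 and Col5a2 were higher in injured than uninjured tissue and higher again in antibody-treated tissue, at 35.1, 48.2, 55.5 and 5.12 TPM on average there, while Col5a1 and Col11a2 were highest in injured tissue, at 12.5 and 20.7.

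In antibody-treated against uninjured tissue, 5 of the 9 chains were higher and 0 lower by the same edgeR test, where 6.30% of all genes were higher and 3.22% lower, which is 931 and 476 genes, or 1267 and 201 by library size alone. The same 5 chains had no overlap between the groups, against 15.6% of all genes. They were Col1a1, Col1a2, Col3a1, Col5a2 and Col5a3, and the median over the 9 chains was 0.93 on the log2 scale, against 0.01 over all genes. This comparison and the last share the 4 uninjured libraries, and the comparison of the 2 injured groups shares libraries with both, so the values are given side by side and not as independent results.

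Col3a1 showed the largest change. Its antibody-treated libraries stood at 53.8, 57.6, 63.0 and 47.6 TPM, all far above the highest uninjured library at 3.13. The log2 fold change was 4.29 ± 0.10, a 19.6-fold difference (edgeR adjusted p = 1.42e-11). Col1a1 reached 33.8, 35.2, 39.7 and 31.6 TPM, a log2 fold change of 3.00 ± 0.07 (edgeR adjusted p = 2.23e-11), and Col1a2 reached 45.1, 47.7, 52.8 and 47.2, a log2 fold change of 2.51 ± 0.07 (edgeR adjusted p = 2.97e-11). Col5a2 reached 4.95, 5.22, 6.14 and 4.15 TPM, at 1.47 ± 0.11 (edgeR adjusted p = 2.18e-06). Col5a3, at 2.86, 2.43, 2.45 and 2.07 TPM, was 0.93 ± 0.16 above uninjured tissue on the log2 scale (edgeR adjusted p = 0.00251), and from junction reads alone it was 0.77 above with an edgeR adjusted p of 0.0868.

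For the other 4 chains the antibody-treated and uninjured libraries overlapped. Col5a1 differed by 0.13 ± 0.10 (edgeR adjusted p = 0.367, 95% interval -0.08 to 0.35) and Col11a2 by 0.03 ± 0.08 (edgeR adjusted p = 0.807, -0.16 to 0.23) on the log2 scale. Col11a1 read 3.97, 3.87, 5.84 and 3.19 TPM in antibody-treated tissue, with an interval of -0.31 to 0.31. Col2a1 read 0.599, 0.610, 0.616 and 0.636 TPM, with an interval of -0.39 to 0.60. With the GC and length trend removed, Col5a1 passed at 0.27 (edgeR adjusted p = 0.00775). These intervals bound a difference and do not show equal levels.

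In antibody-treated against injured tissue, the 9 chains went in both directions: 4 were higher and 2 lower by the edgeR test. Over all genes 10.9% were higher and 10.7% lower, and 22.0% had no overlap between the groups, as 4 higher chains and 1 lower chain did. The 4 were Col3a1 at 12.1-fold (log2 3.59 ± 0.09, edgeR adjusted p = 7.00e-11), Col1a1 at 3.77-fold (1.91 ± 0.07, 1.20e-09), Col1a2 at 3.28-fold (1.71 ± 0.06, 1.20e-09) and Col5a2 at 2.05-fold (1.04 ± 0.11, 5.06e-05). Each kept its call in all 21 alternatives. Counts of exon reads behind them were large: Col3a1 summed to 692 reads over the injured and 7059 over the antibody-treated libraries, and Col1a1 to 1492 and 4754.

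The lower chains were Col5a1 and Col11a2. Col11a2 stood at 11.6, 12.5, 13.3 and 12.7 TPM in antibody-treated tissue, below every injured library, at a log2 fold change of -0.57 ± 0.08 (edgeR adjusted p = 0.000728). Col5a1 stood at 7.71, 8.56, 10.5 and 7.69 TPM, where 1 library exceeded the lowest injured one at 9.95, and its log2 fold change was -0.39 ± 0.09 (edgeR adjusted p = 0.0117). The mitochondrial share, lowest in injured tissue, ran the opposite course to both chains, and its part was not tested. Both calls ended when the GC and length trend was removed, at -0.18 for Col11a2 (edgeR adjusted p = 0.185) and -0.12 for Col5a1 (edgeR adjusted p = 0.188). Without injured replicate 4, Col5a1 stood at -0.32 (edgeR adjusted p = 0.0537). The transcripts of Col11a2 and Col5a1 held 62.9% and 58.0% G and C, against a median of 49.8% over the genes tested, and those of Col3a1 and Col1a1 52.5% and 58.9%.

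Col5a3, Col11a1 and Col2a1 did not pass. Col5a3, raised in both injured groups over uninjured tissue, differed between them by -0.02 ± 0.15 (edgeR adjusted p = 0.940, 95% interval -0.36 to 0.32). Col11a1 gave -0.20 ± 0.14 (edgeR adjusted p = 0.326) and Col2a1 -0.49 ± 0.20 (edgeR adjusted p = 0.103). The median over the 9 chains was -0.02, against 0.01 over all genes.

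**Figure D2:**
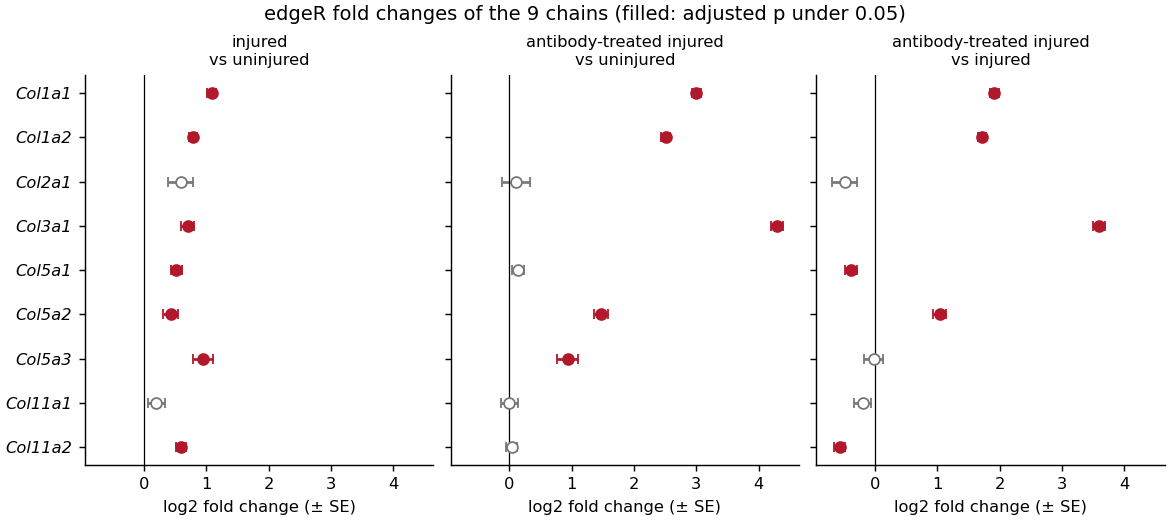
Log2 fold change of each chain with its SE (x axis) in the 3 comparisons, from the edgeR fit, with filled points for an adjusted p under 0.05. In injured against uninjured tissue the points lie between 0.20 and 1.09, while in antibody-treated against injured tissue they run from -0.57 (Col11a2) to 3.59 (Col3a1).

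The make-up of the collagen message differed accordingly. The TPM of the 9 chains summed to 43.4 ± 3.40 in uninjured tissue, 76.8 ± 7.57 in injured tissue and 172 ± 16.2 in antibody-treated tissue, where each group is 4 libraries. Type XI chains made up 37.7% of the sum in uninjured tissue, 33.8% in injured tissue and 9.72% in antibody-treated tissue. Type III went from 6.47% and 6.67% to 32.2%, and type I from 29.5% and 34.8% to 48.4%. Type V held 25.1%, 23.5% and 9.36%, and type II no more than 1.31%. These are shares of one sum, so a rise of some chains lowers the share of the rest. The 9 chains took 0.0110% to 0.0125% of all exon reads in uninjured tissue, 0.0179% to 0.0207% in injured tissue and 0.0407% to 0.0450% in antibody-treated libraries.

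**Figure D3:**
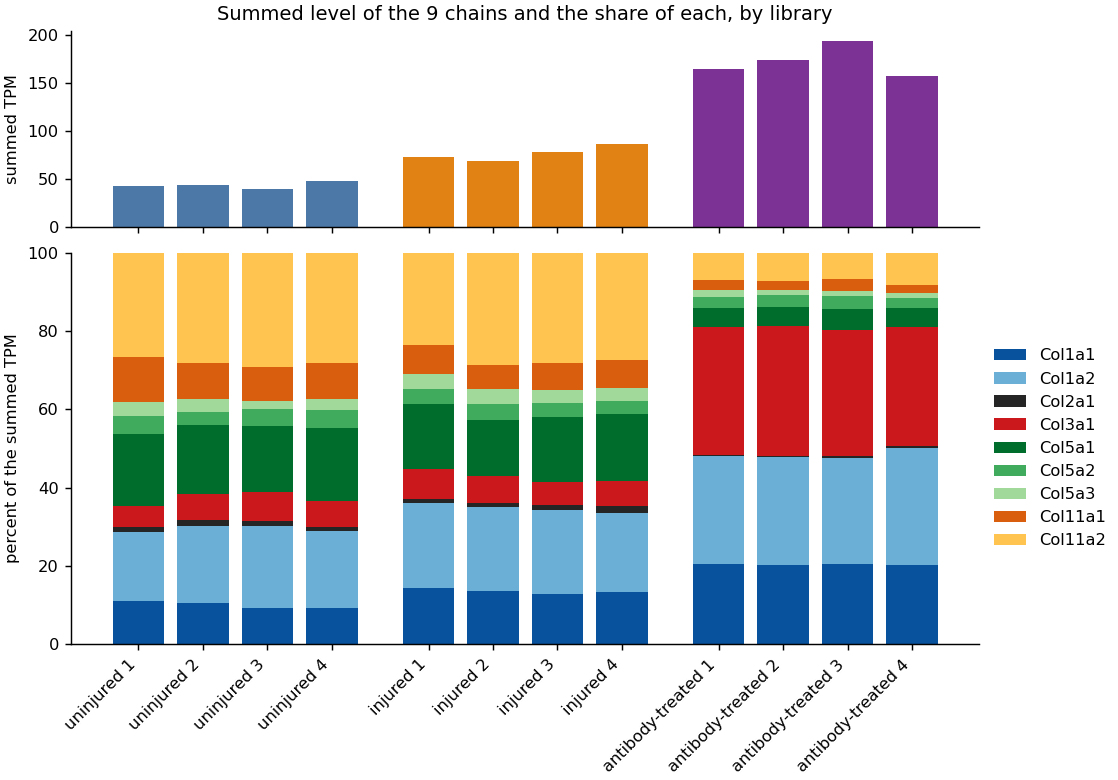
Summed TPM of the 9 chains in each library (upper panel, bars from 0) and the percent of that sum from each chain (lower panel, stacked to 100). In the antibody-treated libraries type I and III chains take 48.4% and 32.2% on average, while type XI chains take 33.8% in injured and 37.7% in uninjured libraries.

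Ratios of chains within a library do not depend on how libraries are scaled. Each of 4 ratios of TPM was compared between each pair of groups by an exact two-sided permutation test on the log2 ratio, with Benjamini-Hochberg adjustment over the 12 tests. With 4 against 4 libraries the smallest p is 0.0286, which is 0.0381 after adjustment here. Type I collagen has 2 Col1a1 chains for each Col1a2 chain, and the Col1a1 to Col1a2 ratio was 0.519 ± 0.0776 in uninjured tissue, 0.632 ± 0.0338 in injured tissue and 0.727 ± 0.0389 in antibody-treated tissue. Antibody-treated tissue was apart from both other groups (exact permutation adjusted p = 0.0381 each), and injured and uninjured tissue overlapped (exact permutation p = 0.0571, adjusted 0.0686). From injured tissue it was apart by very little, with its lowest library at 0.669 and the highest injured one at 0.667. The Col3a1 to Col1a1 ratio was 0.653, 0.495 and 1.58, so that Col3a1 exceeded Col1a1 per length only in the antibody-treated libraries (exact permutation adjusted p = 0.0381 against each other group). Between injured and uninjured tissue the exact permutation p of that ratio was 0.0857, adjusted 0.0935.

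The type V chains parted from each other as well. The Col5a1 to Col5a2 ratio, between chains that join in one molecule, was 4.27 in uninjured tissue, 4.54 in injured tissue and 1.69 in antibody-treated tissue. The last was below both others (exact permutation adjusted p = 0.0381 each), and the first pair did not differ beyond their spread (exact permutation p = 0.543). The Col5a1 to Col1a1 ratio was 1.79, 1.21 and 0.245, with no overlap between any pair of groups and an exact permutation adjusted p of 0.0381 for each of the 3 comparisons. Per length, Col5a1 thus stood above Col1a1 in every uninjured and injured library and below it in every antibody-treated one.

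**Figure D4:**
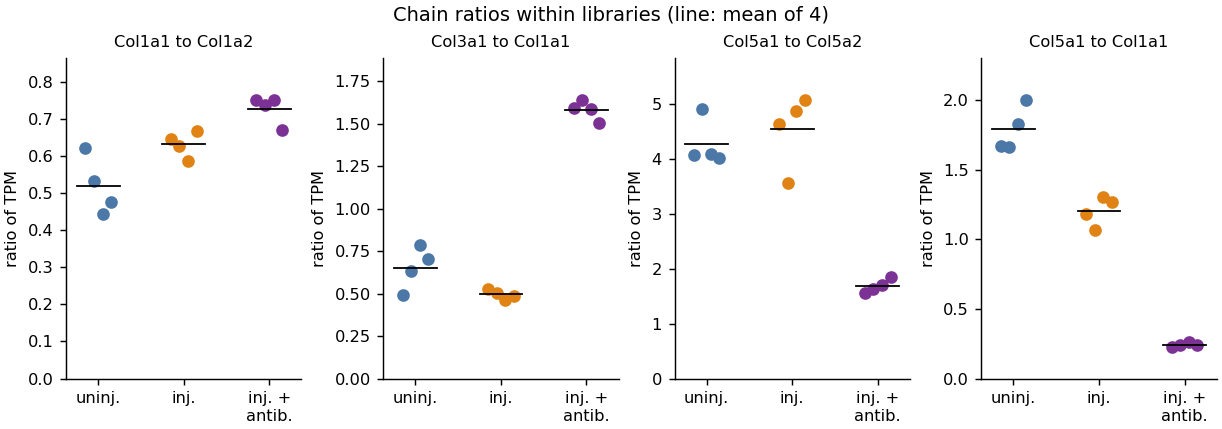
Ratio of the TPM of 2 chains (y axis, linear from 0) in each of the 12 libraries by group, with a line for the mean of 4. The Col5a1 to Col1a1 ratio fell through 1.79 and 1.21 to 0.245, and Col3a1 to Col1a1 rose to 1.58 in antibody-treated tissue from 0.495 in injured tissue.

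Intron reads, a readout of unspliced transcripts in total RNA, were sparse for the chains and mostly below the filter. Only Col5a1 and Col11a2 were among the 11279 genes tested, with 73, 80 and 64 intron reads summed over the uninjured, injured and antibody-treated libraries for Col5a1 and 64, 70 and 40 for Col11a2. Neither was called in any comparison by edgeR, where 0.488%, 0.674% and 9.50% of genes were called in either direction. The intron log2 fold change of Col11a2 was -0.47 against uninjured (edgeR adjusted p = 0.475) and -0.45 against injured tissue (edgeR adjusted p = 0.378). Col3a1 had 4, 1 and 8 intron reads in the 3 groups and Col1a1 8, 8 and 11, too few to test.

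Markers of some cell types that could share the cube moved along with the chains between the groups. For the counts of each list, the shares of all genes tested were 11.9% higher and 11.0% lower in injured against uninjured tissue, 6.30% and 3.22% in antibody-treated against uninjured tissue, and 10.9% and 10.7% in antibody-treated against injured tissue. Of 18 skeletal muscle markers, 16 were higher and 0 lower in antibody-treated tissue against each other group by edgeR, with a median log2 fold change of 4.08 against uninjured and 3.51 against injured tissue. Ckm, the creatine kinase of muscle, stood at 0 to 0.134 normalised CPM, counts scaled to the library, in uninjured tissue, 0 to 0.0637 in injured tissue and 11.2 to 15.5 in antibody-treated libraries. Acta1, skeletal muscle actin, stood at 7.26 to 10.3, 9.87 to 11.2 and 32.2 to 49.1. The list summed to 104 to 139, 127 to 161 and 257 to 344 CPM. Its 2 most abundant members were Pvalb, also a neuronal gene, and Pygm. Without them, a choice made after seeing the values, the sums were 21.4 to 27.2, 26.3 to 30.3 and 170 to 215. In injured against uninjured tissue 3 of the 18 were higher and 0 lower. Their part in the collagen differences was not tested.

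Markers of fibroblasts and meninges were higher for 7 of 20 in injured and 13 of 20 in antibody-treated against uninjured tissue, with 0 and 1 lower, and 8 were higher and 1 lower in antibody-treated against injured tissue. Their summed level was 875 to 1064, 1194 to 1364 and 1202 to 1747 CPM in the 3 groups, of which Ptgds and Igf2 gave most. The mean sums were 982, 1273 and 1452 CPM, and Ptgds alone stood at 609 ± 81.4, 853 ± 76.3 and 934 ± 230. Most of the rise of the sum with injury was thus that of Ptgds. Dcn, a proteoglycan that binds collagen fibrils, stood at 16.4 to 18.8, 18.8 to 22.2 and 44.5 to 50.1 CPM, and Lum, a relative of it, at 2.87 to 4.03, 1.75 to 3.82 and 11.2 to 13.9. Pdgfra, a receptor of fibroblasts that oligodendrocyte precursors share, did not go along, at 47.9 to 61.0, 38.2 to 46.8 and 31.8 to 51.1. The fibroblast list too moved with the chains between the groups, and its part was not tested. Within the antibody-treated group, replicate 4 had the highest fibroblast sum (1747 CPM) and muscle sum (344) but the lowest Col3a1 (116). Replicate 3 had the lowest sums (1202 and 257) and the highest Col3a1 (135). Col1a1 and Col5a2 were likewise highest in replicate 3 and lowest in replicate 4, while Col1a2 was highest in replicate 4 (115).

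Bone is the other collagen-rich neighbour of brain. Of 9 bone markers tested, 3 were higher and 0 lower with injury. In antibody-treated tissue 4 were higher and 1 lower against uninjured, and 3 were higher and 0 lower against injured tissue. The 13 listed summed to 91.7 to 103, 123 to 135 and 145 to 152 CPM, with means of 97.9, 130 and 148. Among the most abundant was Spp1, which macrophages also express and which the fibroblast list holds too. It stood at 22.1 ± 1.59, 62.5 ± 5.12 and 81.8 ± 5.39 CPM. Spp1 thus rose by more than the sum did, and the rise of the sum was not one of the list as a whole. Bglap, osteocalcin, was at 0 in every uninjured library, at 0 to 0.592 CPM in injured and at 0.998 to 2.92 in antibody-treated ones, while Mepe was at 0 in both other groups. Ibsp stood at 0.0672 to 0.261, 0.118 to 0.187 and 0.713 to 1.43 CPM in the 3 groups. Sp7, at 1.82 to 2.54, 1.60 to 2.04 and 1.90 to 2.35, did not go along. Nor did Dmp1, at 6.52 to 8.02, 5.73 to 7.65 and 4.50 to 6.84 CPM. Cartilage markers, for which Col2a1 would be a partner, summed to 63.3 to 68.4, 65.3 to 71.0 and 66.1 to 72.7 CPM, with overlap throughout. Of the 7 tested, 3 were higher and 1 lower with injury, 2 were higher and 0 lower in antibody-treated against uninjured tissue, and 0 were higher and 1 lower against injured tissue. Sox9 and Hapln1 were the most abundant.

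Among cells of brain vessels and parenchyma, neuron and myeloid markers also moved. With injury, 2 of 10 neuron markers were higher and 5 lower, and their sum was 7781 to 8633 CPM in uninjured, 6536 to 7387 in injured and 6556 to 7612 in antibody-treated libraries. Against injured tissue, 2 were higher and 3 lower in antibody-treated tissue, and against uninjured tissue 1 was higher and 2 lower. Of 10 myeloid markers, 4 were higher with injury, 6 in antibody-treated against uninjured and 5 against injured tissue, with 0 lower, and their sum was 265 to 279, 338 to 363 and 440 to 515 CPM without overlap. The part of neither list in the collagen differences was tested. In the same order of comparisons, pericyte and smooth muscle markers gave 2 higher and 2 lower, 2 and 0, and 3 and 2 of 13. Endothelial markers gave 1 and 1, 1 and 1, and 0 and 0 of 10, and astrocyte markers 3 and 0, 1 and 0, and 0 and 2 of 10. The myeloid list held the macrophage lysozyme Lyz2 at 87.8 ± 8.95 CPM in injured and 206 ± 32.8 in antibody-treated tissue. The most abundant markers by count were Rgs5 and Vtn in the pericyte list, Slc2a1 and Flt1 in the endothelial, Slc1a2 and Gfap in the astrocyte, Snap25 and Syt1 in the neuron and Csf1r and Lyz2 in the myeloid list. A pair of lists was added after seeing the data, and its counts follow in the same order of comparisons. Skin epithelium markers gave 1 higher and 0 lower, 0 and 0, and 0 and 0 of 5 tested. Tendon and ligament markers gave 3 and 0, 4 and 0, and 2 and 0 of 7 tested, and their part in the collagen differences was not tested.

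**Figure D5:**
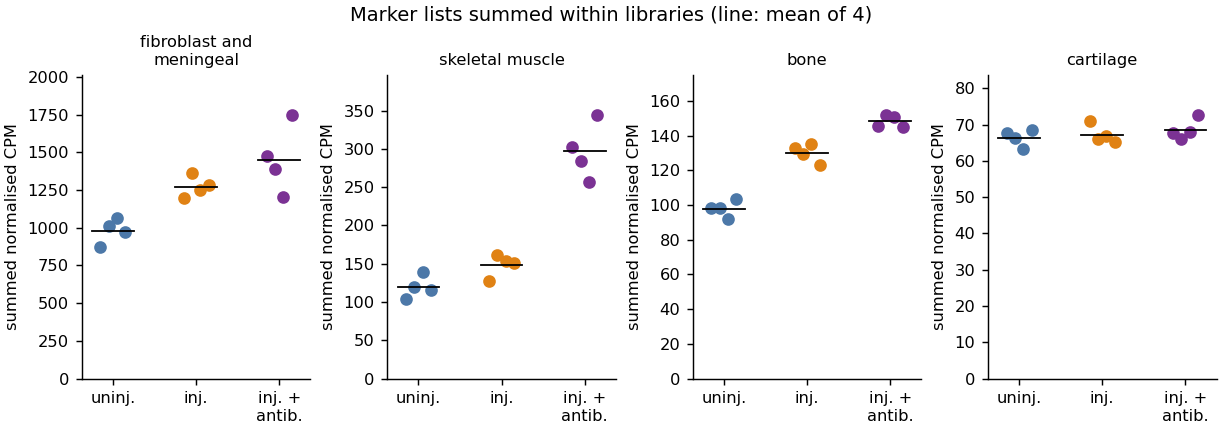
Summed normalised CPM of 4 marker lists (y axis, linear from 0) in each library by group, with a line for the mean of 4. The skeletal muscle sum was 257 to 344 in antibody-treated libraries and at most 161 elsewhere, while the cartilage sums overlapped between 63.3 and 72.7.

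The enzymes and chaperones that fold, trim and crosslink collagen come next. Of 35 processing and crosslinking enzymes tested, 10 were higher and 0 lower in injured and likewise in antibody-treated against uninjured tissue, and 8 were higher and 1 lower in antibody-treated against injured tissue, with medians of 0.21, 0.26 and 0.09. Over all genes tested the shares were 11.9% and 11.0%, 6.30% and 3.22%, and 10.9% and 10.7%, higher and lower in the same order of comparisons, and these also stand beside the lists of fibril-associated proteins and other collagen chains. Serpinh1, the chaperone of procollagen in the endoplasmic reticulum, stood at 17.0 ± 0.674, 23.2 ± 0.858 and 31.1 ± 2.35 CPM in uninjured, injured and antibody-treated tissue. It rose by 0.45 ± 0.07 on the log2 scale with injury (edgeR adjusted p = 0.00236) and by 0.87 ± 0.07 in antibody-treated against uninjured tissue (edgeR adjusted p = 4.29e-06). Lox, which crosslinks fibrils, went from 0.884 ± 0.189 and 1.29 ± 0.298 to 2.90 ± 0.0892 CPM (edgeR adjusted p = 9.57e-05 against uninjured tissue). P4ha1, a prolyl hydroxylase, was 0.49 ± 0.06 higher in antibody-treated than injured tissue (edgeR adjusted p = 0.000325). Bmp1, the protease that trims the C-terminal end of procollagen, followed the course of Col5a1: 55.5 ± 2.99, 72.1 ± 2.83 and 53.7 ± 2.51 CPM, with log2 fold changes of 0.38 ± 0.06 (edgeR adjusted p = 0.00259) and, between the injured groups, -0.42 ± 0.06 (edgeR adjusted p = 0.000632). The genes of this and the other lists were read from the main fit alone. Their calls were not examined with the GC and length trend removed.

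Many proteins that sit on fibrils changed. Of 31 tested, 10 were higher and 1 lower with injury, 21 were higher and 0 lower in antibody-treated against uninjured tissue, and 16 were higher and 3 lower against injured tissue, with medians of 0.27, 0.69 and 0.39. Postn, periostin, stood at 2.89 ± 0.637, 2.59 ± 0.257 and 17.3 ± 1.38 CPM, a log2 fold change of 2.74 ± 0.13 in antibody-treated against injured tissue (edgeR adjusted p = 2.70e-08). Dpt, dermatopontin, was near 0 in uninjured (0.117 ± 0.0346 CPM) and injured tissue (0.0633 ± 0.0901) and at 7.06 ± 0.567 in antibody-treated tissue (edgeR adjusted p = 4.34e-08 against injured). Fmod, which binds type I fibrils, was raised already in injured tissue at 25.3 ± 0.714 CPM from 15.4 ± 1.23 (edgeR adjusted p = 0.000180). Aspn, its relative, fell there to 1.11 ± 0.383 from 2.06 ± 0.373 CPM (edgeR adjusted p = 0.0212) and read 5.18 ± 0.754 in antibody-treated tissue. Col16a1, a collagen on the surface of fibrils, went with Col11a2, at 20.7 ± 2.06, 33.8 ± 2.48 and 25.4 ± 0.859 CPM (edgeR adjusted p = 0.000337 for injury and 0.00371 between the injured groups). Col22a1, a collagen of muscle and tendon junctions, was lower in antibody-treated than injured tissue, at 2.12 ± 0.597 and 3.66 ± 0.601 CPM (edgeR adjusted p = 0.0130).

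Collagen chains outside the 9 also went both ways. Of 25 tested, 10 were higher and 1 lower with injury, 5 were higher and 0 lower in antibody-treated against uninjured tissue, and 5 were higher and 7 lower against injured tissue, with medians of 0.29, 0.14 and -0.07. The 3 chains of type VI, which form beaded filaments between fibrils, differed among themselves. Col6a3 was 0.99 ± 0.12 higher in antibody-treated than injured tissue on the log2 scale (edgeR adjusted p = 0.000162), and Col6a1 was lower, at -0.32 ± 0.06 (edgeR adjusted p = 0.00394). Col6a2 stood at 15.3 ± 1.52, 25.8 ± 1.76 and 25.7 ± 1.61 CPM. Col4a2, a chain of basement membranes, was lower in antibody-treated than injured tissue, at 51.7 ± 5.25 against 71.8 ± 6.39 CPM (edgeR adjusted p = 0.00192). Col8a1, an endothelial and smooth muscle collagen, fell with injury by 0.62 on the log2 scale (edgeR adjusted p = 0.0116). It was 0.87 ± 0.14 higher in antibody-treated than injured tissue (edgeR adjusted p = 0.00125), at 8.12, 5.27 and 9.67 CPM in the 3 groups.

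Receptors and enzymes of turnover are the next step in the path. Of 10 collagen receptors tested, 3 were higher and 2 lower with injury (11.9% and 11.0% of all genes), 3 were higher and 0 lower in antibody-treated against uninjured tissue (6.30% and 3.22%), and 3 were higher and 1 lower against injured tissue (10.9% and 10.7%). Mrc2, which takes up collagen fragments, was higher in injured (12.9 ± 1.01 CPM) than uninjured tissue (7.58 ± 0.464, edgeR adjusted p = 0.00105). Ddr1, a kinase that binds collagen, rose with injury to 98.3 ± 5.58 from 74.8 ± 1.76 CPM and stood at 70.8 ± 5.03 in antibody-treated tissue (edgeR adjusted p = 0.00255 and 0.000382). The integrin subunits Itgb1 and Itga1, which pair into a collagen receptor, fell with injury, by 0.23 and 0.38 on the log2 scale (edgeR adjusted p = 0.0350 and 0.0406). Itgb1 was 0.24 ± 0.07 higher in antibody-treated than injured tissue (edgeR adjusted p = 0.0292). Cd36, a scavenger receptor, stood at 1.09 ± 0.248 CPM in injured and 2.86 ± 0.889 in antibody-treated tissue (edgeR adjusted p = 0.00262). Of 14 degradation genes, 5 were higher with injury, 8 in antibody-treated against uninjured and 6 against injured tissue, and 0 were lower in any, beside the same shares of all genes. Mmp14, a membrane collagenase, stood at 10.1 ± 0.792, 19.0 ± 1.64 and 19.0 ± 1.49 CPM (edgeR adjusted p = 9.36e-05 for injury). Mmp2, a gelatinase that Mmp14 activates, was highest in antibody-treated tissue, at 11.7 ± 0.462 against 4.09 ± 0.588 CPM in injured tissue (edgeR adjusted p = 1.47e-05). Timp1, an inhibitor of matrix metalloproteinases, rose with injury to 1.32 ± 0.250 from 0.682 ± 0.138 CPM (edgeR adjusted p = 0.0365). Mmp13, a collagenase, was at 0.117 ± 0.0843, 0.229 ± 0.0735 and 1.81 ± 0.219 CPM in the 3 groups (edgeR adjusted p = 6.59e-05 between the injured ones).

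Regulators of collagen genes were called about as often as genes in general. Of 29 tested, 2 were higher and 3 lower with injury (11.9% and 11.0% of all genes), 2 were higher and 0 lower in antibody-treated against uninjured tissue (6.30% and 3.22%), and 4 were higher and 1 lower against injured tissue (10.9% and 10.7%). Ccn1, a matrix protein that YAP induces, was highest in injured tissue, at 12.02 ± 0.595 CPM against 5.85 ± 0.611 in uninjured and 5.95 ± 0.554 in antibody-treated tissue, with edgeR adjusted p = 4.14e-05 and 2.83e-05. Ccn2, its relative, was instead higher in antibody-treated tissue, at 43.3 ± 4.46 against 33.2 ± 1.38 CPM in injured tissue (edgeR adjusted p = 0.00430). Among the transforming growth factors β, Tgfb3 rose with injury by 0.27 ± 0.07 on the log2 scale (edgeR adjusted p = 0.0241) and Tgfb2 fell by 0.35 (edgeR adjusted p = 0.0276). Sp3, a factor that binds GC boxes, fell to 27.5 ± 3.77 from 41.6 ± 6.71 CPM (edgeR adjusted p = 0.0251). Prrx1, a transcription factor of fibroblasts, was 0.82 ± 0.18 higher in antibody-treated than injured tissue on the log2 scale (edgeR adjusted p = 0.00618).

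Other genes were ranked by likeness to the chains, leaving out those with clone, predicted (Gm or Rik) or pseudogene names. The mean standardised log2(CPM + 1) of the 9 chains over the 12 libraries was nearest to that of Itgax, the integrin CD11c, at a Pearson correlation of 0.978. Mmp14 (0.970), C4b (0.962), Aldh1a2 (0.960), Hap1 (0.951), Hspa1b (0.944), Tgfb3 (0.941) and Synpo2 (0.940) came next. The 12 libraries fall into 3 groups, so these points are not independent and no test is given. The chains themselves correlated with their own mean at 0.379 (Col11a1) to 0.905 (Col5a3), and that mean pools chains highest in antibody-treated tissue with chains highest in injured tissue. Itgax stood at 1.62 ± 0.235, 5.69 ± 0.562 and 5.24 ± 0.604 CPM, near the course of Col5a3 and unlike that of Col3a1 at 6.51 ± 0.814, 10.6 ± 0.830 and 128 ± 8.23 CPM.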

How the data were processed

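RNA of 12 libraries, 4 a group, was analysed from the deposited tables. The build was GRCm38, and Trimmomatic 0.39, FastQC 0.11.8 and CASAVA 1.8.2 are named, per the submitters' processing notes. The aligner or counter was not given in the sources used here. As read per the file headers, the authors deposited counts of total and unique exon, intron and junction reads, and TPM per gene. All 25749 identifiers matched GENCODE M21 in start and end.

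From the total exon counts, filterByExpr (minimum count 10) kept 14771 genes. One edgeR 4.0.16 quasi-likelihood fit in R 4.3.3 with TMM factors covered the 12 libraries, with no term but group (9 residual degrees of freedom), tested two-sided with Benjamini-Hochberg adjustment over all genes at 0.05. Intron reads had their own filter and fit. Normalised CPM are counts over the effective library size. Ratios of deposited TPM used exact permutation in scipy 1.17.1. The code was tested on simulated data first.

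The members and gene lists were chosen with earlier results of these data known. Named genes of each pathway list are, per comparison, the 2 higher and 2 lower of smallest p that passed, and of each marker list the 2 of highest mean CPM, of which 1 is not reported here. Ckm, Acta1, Dcn, Lum, Pdgfra, Bglap, Mepe, Ibsp, Sp7 and Dmp1 were named after their values were seen, as defining markers. Alternatives were DESeq2 1.42.0 size factors and its Wald test, library size alone, other filters, limma 3.58.1 voom, only the compared groups, a robust spread, a replicate block, unique or junction reads, a GC and length trend removed with mgcv 1.9.3, and libraries left out.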

Additional observations from a re-analysis of the deposited data

Results flagged for a closer look

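The Col5a1 to Col5a2 ratio of TPM was 4.91 in uninjured replicate 2, while the other 3 uninjured libraries lay between 4.02 and 4.09. The gap to the nearest library, divided by the range of the group, was 0.920, above the critical value of 0.83 for 4 libraries. It was the only value to pass among 39 groups of 4 examined, of which chance passes about 1 in 20.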

How the results depend on the processing

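For the 9 chains 21 alternatives were run in each of 3 comparisons, and for intron reads 11. Col1a1, Col1a2 and Col3a1 kept direction and call in all of them in all 3 comparisons. The number of chains called in injured against uninjured tissue was 4 with junction reads, against 7, and 6 to 8 with each library left out. It was 5 throughout in antibody-treated against uninjured tissue and 5 to 6 against injured tissue when libraries were left out. Junction reads are fewer per gene (11954 genes tested). With a replicate block 7, 5 and 6 chains were called, as without it. Same-numbered libraries correlated at -0.53 to 0.43 in their deviations from the group means. With 4 libraries a group, these values cannot decide if the replicate numbers pair the mice. Over all genes the block lowered the count of lower genes in antibody-treated against uninjured tissue from 476 to 213. Library size alone moved the median gene to 0.11 in injured against uninjured tissue and split its calls 3157 higher to 995 lower, against 1764 to 1632. With the GC and length trend removed the calls were 818 to 1376, 1162 to 2012 and 1243 to 1507 in the 3 comparisons, against 1764 to 1632, 931 to 476 and 1612 to 1581. From junction reads they were 48 to 18, 257 to 45 and 329 to 178, and with only the compared groups in the model 2250 to 2511, 650 to 232 and 1058 to 1072. In antibody-treated against uninjured tissue they were 1037 to 883 by the DESeq2 Wald test, 682 to 213 with the block and 517 to 244 without both end libraries. With each library left out, higher genes numbered 685 to 2431, 640 to 2054 and 1053 to 1957 in the 3 comparisons and lower genes 580 to 2417, 213 to 1915 and 837 to 1816.

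Values that changed sign were all short of the threshold in the first place. In antibody-treated against uninjured tissue, Col2a1 was -0.125 with junction reads and -0.0387 without uninjured replicate 1 and antibody-treated replicate 4, the end libraries of the first principal component, and Col5a1 was -0.0586 with junction reads. Col11a1 was 0.0543 by library size alone, 0.0015 with a filter of 1 CPM, 0.0023 with unique reads, 0.128 with GC and length removed, 0.1502 without both end libraries, and -0.157 to 0.0879 with each library left out. Col11a2 was -0.0584 without both end libraries and -0.0025 to 0.0657 with each library left out. In antibody-treated against injured tissue, Col5a3 was 0.330 with GC and length removed, 0.0276 without both end libraries and -0.123 to 0.0324 with each library left out. From intron reads scaled as the exon reads, Col5a1 was 0.0079, -0.0667 and -0.0746 in the 3 comparisons and Col11a2 was 0.0082 with injury; by library size alone Col5a1 was -0.0191 and -0.0049 in the last 2. With each library left out, intron values of Col5a1 ran from -0.264 to 0.126, -0.0839 to 0.121 and -0.0975 to 0.293, and those of Col11a2 with injury from -0.194 to 0.0975. The cause of each change was not tested. Leaving out 1 library leaves ratios at 3 against 4, where the smallest exact permutation p is 0.0571, so they were kept as values: all 12 held their direction. Col2a1 and the intron reads of all chains rest on few reads.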
